A study of Mus musculus with 9 samples.

Results

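The serpins examined here are a set of protease inhibitors that have been described in activated macrophages, measured on microarrays of cultured mouse microglia. The genes were selected on their levels across the unstimulated, LPS/IFNγ and IL-4 arrays of this same experiment and listed by symbol, and there are 7 of them: Serpina3f, Serpina3g, Serpina3n, Serpinb2, Serpinb6a, Serpinb9 and Serpinf1. Of these 7, 6 had a probe under their symbol, with 10 probes in all, out of 56 serpin genes and 19057 named genes on the array. Serpina3g had no probe under its symbol in the annotation used here, so it has no value. Because the choice of members rested on these arrays, the levels of the members are given as descriptions, with standard errors (SE) and without tests.

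The arrays compared primary microglia, brain macrophages grown here from cortical tissue of newborn C57BL/6J mice between 1 and 5 days old. All groups carried the intact cannabinoid receptor 2 gene (CB2+/+). The 3 groups of 3 arrays each were unstimulated cells, cells given lipopolysaccharide (LPS, at 100 with an incomplete unit in the labels) with 20 ng/ml IFNγ for 16 h, and cells given 100 U/ml IL-4 for 48 h. How long the unstimulated cells were cultured is not given, and the labels do not say whether replicates came from separate cultures, so the p-values below measure the spread between these samples, which may be technical.

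Serpins inactivate proteases by acting as a bait: the target enzyme cuts an exposed loop of the inhibitor, and the serpin then snaps into a new shape that traps the enzyme in a dead complex. Clade A members such as the Serpina3 genes are mostly secreted, while clade B members stay in the cytosol and nucleus and protect the cell from leaked granule and lysosomal proteases. Activated macrophages make and release many proteases, so their inhibitors are of interest in brain inflammation. A few serpins, Serpinf1 among them, have lost the inhibitory function and act as secreted signals.

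Levels below are normalized log2 intensities, and differences between groups are differences of those log2 levels. A probe was called detected on an array where its detection p-value, the deposited measure of signal over the negative control beads, was under 0.05. It counted as measured when detected on at least 3 of the 9 arrays, which 16895 of 45281 probes and 9391 named genes were. The filter passed 6 of the 10 member probes and 4 of the 6 genes with a probe: Serpina3f, Serpina3n, Serpinb6a and Serpinf1. Just inside it stood Serpina3n, detected on 3 arrays, and just outside it Serpinb2, detected on 1 array, while Serpinb9 was detected on 0.

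One array stood apart before any gene was considered. The second LPS + IFNγ array had a mean intensity of 112, against 311 to 379 on the other 8 arrays, and 6208 detected probes against 14475 to 16435. The lowest normalized level that counted as detected on it was 7.55, whereas on the other 8 arrays it lay between 4.75 and 4.93. A low level on that array therefore has only a bound, and differences are given with and without it where it mattered. Defining microglia markers were present, with 12 of 12 detected on all unstimulated and all IL-4 arrays and 7 of 12 on all LPS + IFNγ arrays. Their summed linear level was 51800 to 64000 on unstimulated, 20100 to 26700 on LPS + IFNγ and 45500 to 49600 on IL-4 arrays. After LPS + IFNγ 5 of the 12 fell against unstimulated cells and 0 rose (limma with Benjamini-Hochberg adjustment at 0.05), beside 12.2% and 6.10% of all measured genes, and 7 fell and 2 rose without the weak array. Named after their values were seen, the 5 were Cx3cr1, Trem2, Fcrls, Csf1r and Tyrobp, and the median of the 12 was -1.48, beside -0.23 over all genes. Among markers of other cells, Mag and Cnp of the oligodendrocyte list and S100a8 of the neutrophil list rose and Mbp fell, also named after their values were seen, and none of these 4 was called when the slide that carried each array was taken as a block. In RNA from whole cultures, fewer cells of a type and less RNA per cell cannot be told apart.

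The starts of 4 member genes are shown because the cultures were given IFNγ and because 3 of the genes belong to the Serpina3 cluster, a run of 14 genes and pseudogenes on mouse chromosome 12. Each sequence is the stretch from 250 bases before to 50 bases after the annotated start, 5′ to 3′ on the gene's strand, from RefSeq on GRCm38.p6. They are Serpina3f at chr12:104214294-104214593 on the plus strand, Serpina3g at chr12:104235897-104236196 on the plus strand, Serpina3n at chr12:104406458-104406757 on the plus strand and Serpinb6a at chr13:34002745-34003044 on the minus strand. Capitals mark matches on either strand to the core of the interferon-stimulated response element, read as TTTC, any pair of bases, then TTTC.
Serpina3f: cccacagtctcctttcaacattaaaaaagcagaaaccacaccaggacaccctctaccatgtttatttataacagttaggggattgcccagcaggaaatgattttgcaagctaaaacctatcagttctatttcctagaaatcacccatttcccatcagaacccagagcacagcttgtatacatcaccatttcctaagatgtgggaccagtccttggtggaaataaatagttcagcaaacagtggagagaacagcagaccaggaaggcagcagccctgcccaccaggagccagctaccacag
Serpina3g: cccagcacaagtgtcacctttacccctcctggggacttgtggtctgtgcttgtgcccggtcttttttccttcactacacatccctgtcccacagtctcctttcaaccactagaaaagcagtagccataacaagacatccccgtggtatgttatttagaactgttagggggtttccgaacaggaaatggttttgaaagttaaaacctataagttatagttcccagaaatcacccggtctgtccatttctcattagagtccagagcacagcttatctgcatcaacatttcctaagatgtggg
Serpina3n: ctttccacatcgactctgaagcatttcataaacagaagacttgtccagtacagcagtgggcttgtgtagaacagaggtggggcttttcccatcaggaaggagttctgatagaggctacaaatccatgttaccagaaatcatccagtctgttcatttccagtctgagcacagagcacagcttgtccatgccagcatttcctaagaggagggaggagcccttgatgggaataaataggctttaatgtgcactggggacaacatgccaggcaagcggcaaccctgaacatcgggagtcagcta
Serpinb6a: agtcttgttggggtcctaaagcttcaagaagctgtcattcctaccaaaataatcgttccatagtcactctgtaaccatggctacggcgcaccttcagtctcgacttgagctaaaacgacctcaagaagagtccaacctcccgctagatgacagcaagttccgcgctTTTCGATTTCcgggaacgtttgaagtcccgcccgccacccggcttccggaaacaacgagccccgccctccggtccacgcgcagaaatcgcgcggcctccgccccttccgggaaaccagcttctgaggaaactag

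All 7 members matched an entry, with 10 start windows in all. The response element core stood in the printed Serpinb6a window at -84 to -75 from the start (TTTCGATTTC) and in the Serpinb9 window at -46 to -37 (TTTCACTTTC). The second Serpinb6a window held none, and neither did the windows of Serpina3f, Serpina3g, Serpina3n, Serpinb2 and Serpinf1. Of 32851 windows of this length over all genes, 3.44% held it. These matches describe letters and are not evidence of binding. The Serpina3f and Serpina3g windows were 83.7% identical over 202 aligned bases, and Serpina3f and Serpina3n 70.6% over 282 bases. The probe sequences were not used here, so a signal shared between close copies in this cluster cannot be told apart from a signal of the named gene.

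Serpina3f, a clade A inhibitor of this mouse cluster (chr12:104214544-104221129), was the member with the widest spread between groups. Its level was 4.32, 4.51 and 4.40 on the unstimulated arrays, 11.77, 11.06 and 11.75 on the LPS + IFNγ arrays, and 6.19, 4.57 and 4.24 on the IL-4 arrays. All 3 LPS + IFNγ arrays lay far above the other 6, and the transcript was detected on those 3 and on the first IL-4 array alone. Before normalization its intensity was 4154, 189 and 4037 on the LPS + IFNγ arrays, the low value being that of the weak array, and 113 to 124 on the unstimulated arrays. Within each LPS + IFNγ array it ranked 528, 924 and 536 from the brightest of 45281 probes, so it was among the bright probes on the weak array too.

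The mean of Serpina3f lay 7.12 ± 0.48 (SE) higher in LPS + IFNγ than in unstimulated cells, and no unstimulated array detected it. With the background correction used here, and each unstimulated array taken at its lowest detected level, it was at least 109-fold higher. The difference was 7.35 without the weak array and 7.34 within slide 2, which held all 3 unstimulated arrays and 1 array of each treatment. The size depended on the background correction. It was 4.43 without one and 4.39 in the authors' deposited log2 table. With median centring in place of quantile normalization it was 5.88. Against IL-4 the mean lay 6.52 ± 0.48 higher, with 6.03 on slide 1 and 7.50 on slide 2. IL-4 and unstimulated arrays overlapped, with a difference of 0.60 ± 0.48 that rested on the first IL-4 array and was 0.00 without it.

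**Figure D1:**
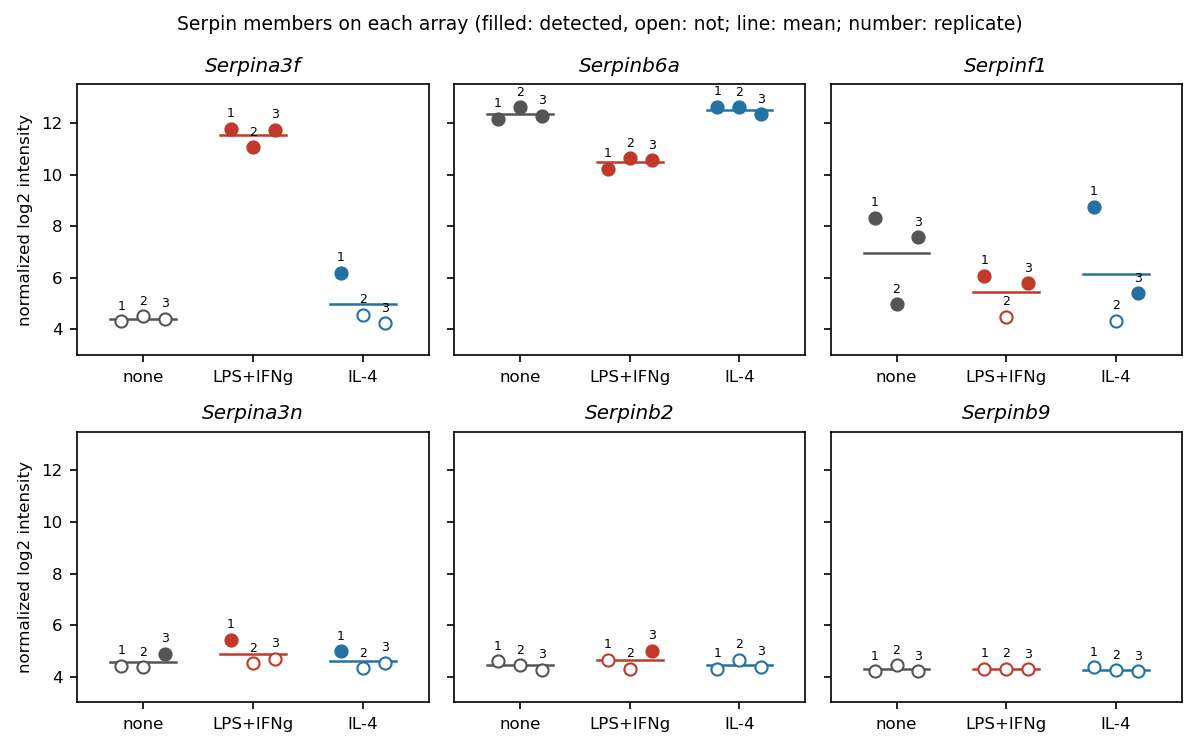
Normalized log2 intensity (vertical axis) of the member probes on each of the 9 arrays, for the brightest probe of each of 6 members, with a line at each group's mean and open points where a value was not detected. Serpina3f stands at 11.06 to 11.77 on the LPS + IFNγ arrays and at or below 6.19 elsewhere, and the first Serpinb6a probe is lower on the LPS + IFNγ arrays than on the other 6.

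Serpinb6a, a cytosolic inhibitor of cathepsin G and other serine proteases (chr13:33917918-34002794), showed the opposite order. Its brightest probe read 12.18, 12.61 and 12.29 on the unstimulated arrays, 10.24, 10.63 and 10.56 on the LPS + IFNγ arrays, and 12.63, 12.61 and 12.34 on the IL-4 arrays. It was detected on all 9 arrays, and the 3 LPS + IFNγ arrays lay below all others without overlap. It ranked between 245 and 372 from the brightest probe on the unstimulated and IL-4 arrays and between 1254 and 1633 on the LPS + IFNγ arrays.

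The log2 difference of that probe was -1.88 ± 0.23 between LPS + IFNγ and unstimulated cells, a 3.68-fold lower level, and -2.05 ± 0.23 between LPS + IFNγ and IL-4 cells, a 4.15-fold lower level. Within slide 2 the first of these differences was -1.80, without the weak array it was -1.96, and with median centring in place of quantile normalization it was -3.23. IL-4 and unstimulated arrays overlapped, at 0.17 ± 0.23. Serpinb6a has 3 further probes. The second read 4.41 to 5.04 and differed by -0.44 ± 0.21 between LPS + IFNγ and unstimulated cells, near the detection limit, and the other 2 were detected on 1 and 0 arrays. The second probe was detected on 3 of 3 unstimulated and 0 of 3 LPS + IFNγ arrays, so its LPS + IFNγ values have only a bound. With undetected values raised to each array's detection limit, its difference was 0.79. The lower level in LPS + IFNγ cells therefore rests on the brightest probe. The 5 microglia markers named above fell in the same comparison, and their part in the level of Serpinb6a was not tested.

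Serpina3n, a secreted inhibitor of granzyme B and cathepsin G that astrocytes and liver make in inflammation (chr12:104406646-104414334), stayed near the detection limit. It read 4.41, 4.37 and 4.89 on the unstimulated arrays, 5.42, 4.52 and 4.69 on the LPS + IFNγ arrays and 4.99, 4.33 and 4.53 on the IL-4 arrays. The groups overlapped, and each group had a single array on which it was detected. The differences from unstimulated cells were 0.32 ± 0.32 for LPS + IFNγ and 0.06 ± 0.32 for IL-4.

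Serpinf1, the secreted pigment epithelium-derived factor that limits blood vessel growth (chr11:75410029-75422623), varied more within groups than between them. Its brighter probe read 8.34, 4.97 and 7.58 on the unstimulated arrays, 6.07, 4.48 and 5.79 on the LPS + IFNγ arrays and 8.76, 4.33 and 5.40 on the IL-4 arrays. On this probe the groups overlapped in every comparison, and the first unstimulated and first IL-4 arrays were the highest. The differences were -1.52 ± 1.21 for LPS + IFNγ and -0.80 ± 1.21 for IL-4 against unstimulated cells. The first was -1.03 without the weak array, where the transcript was not detected, and -0.49 with undetected values raised to each array's detection limit. As single arrays were left out it ran from -2.51 to -0.83, and the IL-4 difference from -2.09 to 0.12. The second probe read 4.81 to 5.36, near the detection limit, and did not show this spread. On it the IL-4 arrays lay above the unstimulated arrays without overlap, by 0.23 ± 0.23.

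Of the 13 endothelial, mural and fibroblast markers, Acta2 and Col1a1 are given because they were high on those first arrays, and they were picked after their values were seen. Acta2, the smooth muscle actin of mural cells and fibroblasts, read 9.14, 5.86 and 6.45 on the unstimulated, 7.27, 10.05 and 6.33 on the LPS + IFNγ and 11.39, 5.54 and 6.65 on the IL-4 arrays. It was thus highest where Serpinf1 was in the unstimulated and IL-4 groups. In the LPS + IFNγ group it was highest on the weak array, where Serpinf1 was not detected and has only a bound. Col1a1, a fibrillar collagen, was detected on the first unstimulated array (5.06) and the first IL-4 array (8.19) and on no other. Other genes of the list did not follow them on the first unstimulated array, where Flt1, a VEGF receptor, was the lowest of its group (8.80, against 10.67 and 9.60) and Col1a2, Col3a1, Dcn and Lum were not detected. Of the 13 markers, 4, 6 and 8 were detected on some unstimulated, LPS + IFNγ and IL-4 array. Their summed linear levels were 1150 to 1940, 868 to 1490 and 4350 to 7710 in that order of groups. Flt1 alone read 11.91 to 11.95 on the 3 IL-4 arrays, while Cldn5, Tek, Pdgfrb and Rgs5 were detected on none of the 9 arrays.

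One astrocyte marker, Gja1, was high on the first IL-4 array as well. The 12 genes of the astrocyte list summed to 269 to 351 on unstimulated, 350 to 666 on LPS + IFNγ and 281 to 2430 on IL-4 arrays. Gja1, the gap junction protein connexin 43, read 11.03 on the first IL-4 array and 4.38 and 5.16 on the others of that group, so the high sum there rests on it. Gfap read 5.26 on that array and 5.53 on the third unstimulated array, and Aqp4, S100b, Gjb6 and Fgfr3 were detected on no array. Limma called 0 of the 4 measured astrocyte genes for IL-4 against unstimulated cells, beside 0.0639% of all measured genes. At an unadjusted p under 0.05 there were 0 of the 4, and their median was 0.12. The first IL-4 array was also the one IL-4 array with Serpina3f and Serpina3n detected. The part of these other cells in the levels of Serpinf1, Serpina3f and Serpina3n was not tested.

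**Figure D2:**
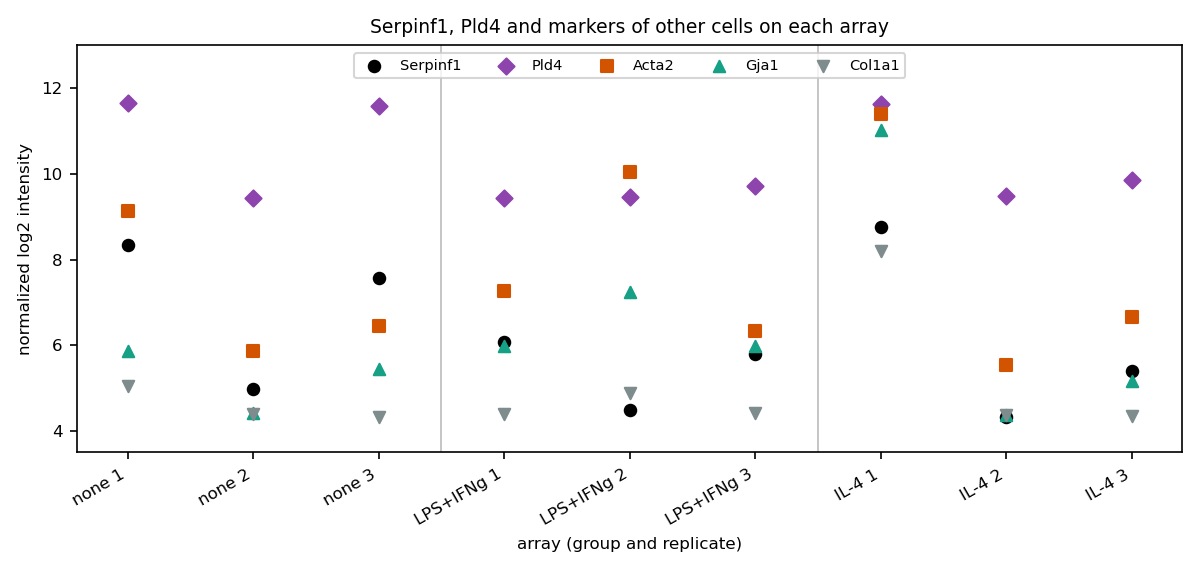
Normalized log2 intensity (vertical axis) on each of the 9 arrays for Serpinf1, for Pld4, the gene nearest to it, and for Acta2, Gja1 and Col1a1. The first unstimulated and first IL-4 arrays hold the highest Serpinf1 levels, 8.34 and 8.76, and the Acta2 level of the first IL-4 array is 11.39.

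The other members with a probe stayed below the filter. Serpinb2, the plasminogen activator inhibitor that macrophages are known to induce with LPS (chr1:107500892-107525600), read 4.60, 4.44 and 4.27 on unstimulated, 4.65, 4.31 and 5.00 on LPS + IFNγ and 4.31, 4.66 and 4.38 on IL-4 arrays. Only the third LPS + IFNγ array passed the detection threshold, with a detection p-value of 0.0406. Serpinb9, the cytosolic granzyme B inhibitor (chr13:32997061-33017955), read 4.21 to 4.44 and was detected on none. Each of these genes was read by 1 probe, and a level under its detection limit was not detectable here.

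Counted over the 4 measured members, 1 (Serpina3f) lay higher and 1 (Serpinb6a) lower in LPS + IFNγ than in unstimulated cells without overlap between the groups, and 2 overlapped. Over all 9391 measured genes, 14.0% lay higher and 27.0% lower in that comparison without overlap, so 41.0% in either direction, and limma called 18.3% of them. Against IL-4 the count was again 1 higher and 1 lower, where 12.6% and 26.8% of all genes did so, 39.4% together, and limma called 17.2%. Between IL-4 and unstimulated cells 0 of 4 were without overlap, beside 18.2% of all genes. Per probe, limma called 15.7% for LPS + IFNγ against unstimulated, 14.4% for LPS + IFNγ against IL-4 and 0.0533% for IL-4 against unstimulated cells. The median log2 difference of the members was -0.60, 0.11 and -0.23 for LPS + IFNγ against unstimulated, IL-4 against unstimulated and LPS + IFNγ against IL-4, and that of all genes was -0.23, 0.01 and -0.25. Since the members were picked with these values in view, nothing is read from their counts.

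Genes with the profile most like each member were taken as the smallest root mean square difference over the 9 arrays, after each gene was centred on its own mean, among 9124 genes. For Serpina3f, whose own profile had an SD of 3.27, these were Slamf7, a receptor of activated leukocytes, at 0.27, then Traf1, a signalling adaptor of TNF receptors, and Lcn2, the iron-binding lipocalin, both at 0.44. By correlation in place of distance the nearest were Slamf7, Tgtp1 and Cxcl9. For Serpinb6a (SD 0.94) they were Dpp7, a lysosomal peptidase, at 0.16, and Zfp36l1, an mRNA-decay factor, and Mcee, a mitochondrial epimerase, both at 0.20. Serpinf1 (SD 1.56) was nearest to Pld4, a lysosomal exonuclease, at 0.73, with S100a10 and Fxyd2 at 0.81. For Serpina3n (SD 0.34) the nearest were Slc52a3 at 0.10, and Ccl19 and Hrob, both at 0.18. Each of these was detected on the same 3 arrays as Serpina3n and on no others. The arrays of a group share treatment, and these likenesses are descriptions.

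The rest of the serpin family was read for comparison, by symbol. Of 50 other serpin genes on the array, 7 were measured, 16 were detected on 1 or 2 arrays and 27 on none. Serping1, the C1 inhibitor that holds back the complement and contact proteases, was the one of these 7 called after LPS + IFNγ. With no filter on dim probes, the count of other serpins called in that comparison was also 1. Serping1 read 4.50, 4.54 and 4.35 on the unstimulated, 9.0, 9.11 and 9.18 on the LPS + IFNγ and 4.85, 4.50 and 4.35 on the IL-4 arrays. The LPS + IFNγ arrays thus lay far above the rest. It was detected on 0 unstimulated, 3 LPS + IFNγ and 1 IL-4 array, so it passed the filter only through the LPS + IFNγ arrays. It rose by 4.63 ± 0.21 against unstimulated cells (limma with Benjamini-Hochberg adjustment, adjusted p = 2.32e-05), and its second probe gave 4.64. With the background correction used here this is at least 20.2-fold, as the unstimulated arrays did not detect it, but the difference was 2.30 without the correction and 2.29 in the authors' deposited log2 table. Over the alternatives its adjusted p ran from 3.01e-08 to 0.0726, the last under median centring, where it stood at 3.30. Against IL-4 cells it rose by 4.53 ± 0.21 (adjusted p = 2.87e-05). Among all measured genes, limma called 6.10% higher and 12.2% lower after LPS + IFNγ against unstimulated cells, and 5.64% and 11.5% against IL-4 cells.

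The other 6 measured serpins did not pass in any of the 3 comparisons. Serpinh1, the collagen chaperone, read 5.68, 4.41 and 4.63, then 4.37, 7.96 and 4.70, then 8.40, 4.38 and 4.94 on the same order of arrays. It was high on the weak LPS + IFNγ array and on the first IL-4 array, with a difference of 0.77 ± 1.21 for LPS + IFNγ that turned to -0.37 without the weak array and to -0.20 with the slide as a block. Serpinb6b, a close relative of Serpinb6a, read 4.46, 7.70 and 6.04 on unstimulated arrays, 6.13, 6.82 and 7.11 on LPS + IFNγ arrays and 5.66, 7.93 and 7.51 on IL-4 arrays. Its difference was 0.62 ± 0.84 for LPS + IFNγ, with all 3 groups overlapping. Serpinb1c, Serpinb6c, Serpinb12 and Serpina5 differed by 0.29, -0.06, -0.28 and 0.14. For IL-4 against unstimulated cells limma called 0 of the 7, with 0 at an unadjusted p under 0.05, beside 0.0639% of all genes called higher and 0% lower.

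**Figure D3:**
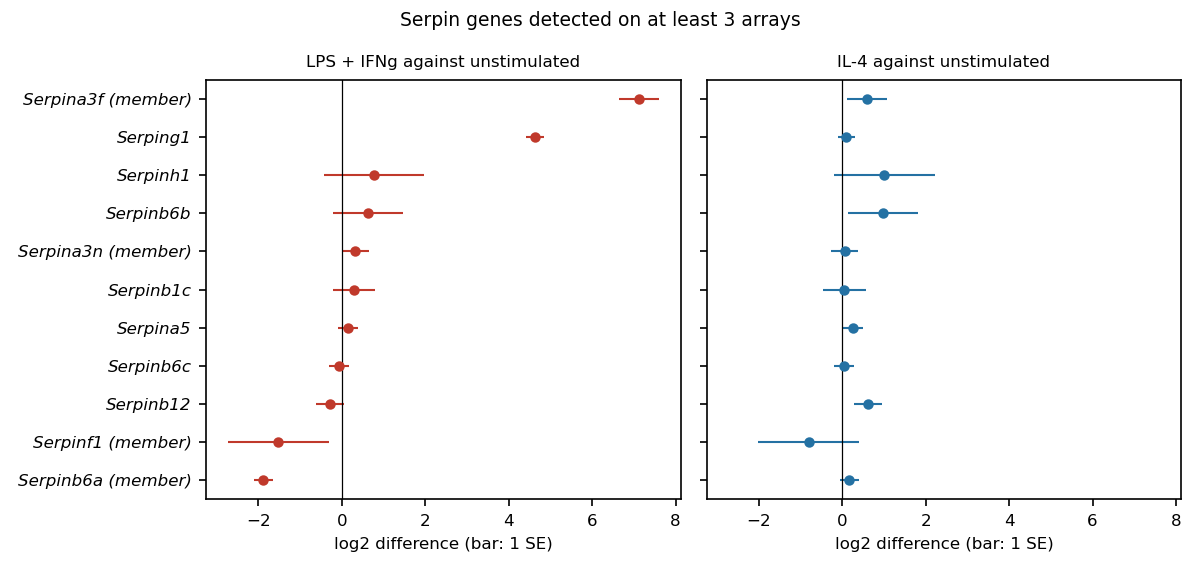
Difference in normalized log2 intensity (axis, ± SE) for each measured serpin, in 1 panel for LPS + IFNγ and 1 for IL-4, both against unstimulated cells. Serpina3f at 7.12 and Serping1 at 4.63 lie far above the rest for LPS + IFNγ against unstimulated cells, and Serpinb6a at -1.88 lies below 0.

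The enzymes that serpins inhibit, and related proteases of macrophages, were taken as a list of 39, of which 38 were on the array and 16 measured. After LPS + IFNγ 2 rose and 2 fell against unstimulated cells, beside 6.10% and 12.2% of all measured genes, and the median of the 16 was -0.02, beside -0.23 over all genes. Casp1, the inflammasome protease that cuts pro-IL-1β, rose by 1.58 ± 0.24 (limma, adjusted p = 0.00388), with 11.39 to 12.09 on the unstimulated and 13.17 to 13.39 on the LPS + IFNγ arrays. Mmp9, a gelatinase, rose by 1.43 ± 0.24 (limma, adjusted p = 0.00549), with 4.96 to 5.20 on the unstimulated and 6.23 to 6.87 on the LPS + IFNγ arrays. Under median centring the differences were 0.42 and 0.70, and adjusted p over the alternatives reached 0.774 and 0.388.

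The 2 that fell encode lysosomal enzymes. Ctsl, a cysteine protease that Serpina3g is known to inhibit in mice, fell by 2.45 ± 0.48 (limma, adjusted p = 0.0103), with 6.69 to 7.80 on the unstimulated and 4.40 to 4.94 on the LPS + IFNγ arrays, and was detected on 1 of the 3 LPS + IFNγ arrays. Ctsd, an aspartic protease, fell by 2.13 ± 0.46 (limma, adjusted p = 0.0157), with 7.29 to 7.95 on the unstimulated and 4.41 to 6.17 on the LPS + IFNγ arrays. Blocking on slide gave adjusted p of 0.0669 and 0.120, within ranges over the alternatives of 0.000928 to 0.305 and 0.000673 to 0.172. Ctsd was not called without the second or without the third unstimulated array, with an adjusted p of up to 0.0698. Raising undetected values to each array's detection limit left -1.26 and -1.08, and neither was then called.

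Other textbook targets of the members did not pass the test or were not measured. Ctsb, another lysosomal cysteine cathepsin, read 13.95 to 14.56 on all 9 arrays and differed by -0.15 ± 0.22 between LPS + IFNγ and unstimulated cells (limma, adjusted p = 0.667). Plau, the urokinase that Serpinb2 blocks, was detected on 2 arrays, and Plat, Gzmb and Ctsg on 0. Against IL-4 cells LPS + IFNγ cells had 2 of the 16 higher (Casp1 by 1.45 and Mmp9 by 1.82) and 1 lower (Ctsl, which fell by 2.59), beside 5.64% and 11.5% of all genes. For IL-4 against unstimulated cells limma called 0 of 16, with 0 at an unadjusted p under 0.05, beside 0.0639% of all genes called.

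Plasminogen activation, the cascade that Serpinb2 restrains, was read through 11 listed genes, of which 9 were on the array and 4 measured. After LPS + IFNγ, 2 of the 4 rose and 1 fell against unstimulated cells, beside the same 6.10% and 12.2% of all genes, and their median was 0.13. Plaur, the urokinase receptor, rose by 1.96 ± 0.41 (limma, adjusted p = 0.0132), with 6.78 to 7.52 on the unstimulated and 8.77 to 9.68 on the LPS + IFNγ arrays. Anxa2, the annexin that docks plasminogen at the cell surface, rose by 0.81 ± 0.23 (limma, adjusted p = 0.0436), but stood at -0.36 under median centring. Its second measured probe differed by 0.16 and was not called (limma, adjusted p = 0.892). Lrp1, the receptor that clears serpin-protease complexes, fell by 2.63 ± 0.52 (limma, adjusted p = 0.0109), with 6.96 to 8.02 on the unstimulated and 4.40 to 4.99 on the LPS + IFNγ arrays.

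Blocking on slide gave Plaur, Anxa2 and Lrp1 an adjusted p of 0.0662, 0.285 and 0.0893, and over all alternatives it ran from 0.000809 to 0.779, from 0.00917 to 0.792 and from 0.000576 to 0.243. Plaur was not called without the second unstimulated array (0.0564), and Anxa2 lost its call for 7 of the 9 arrays left out singly, with an adjusted p of up to 0.140. With undetected values raised, Lrp1 stood at -1.53 and was not called. Of 6 proteins known to bind Serpinf1, 4 were measured, and Plxdc1, a receptor for it, fell by 2.34 ± 0.57 after LPS + IFNγ (limma, adjusted p = 0.0253, from 0.00119 to 0.188 over the alternatives). It was not called when any 1 of the 3 unstimulated arrays was left out. Its second measured probe stood at -2.39 and was not called (limma, adjusted p = 0.0796). Pnpla2, the lipase that Serpinf1 stimulates, differed by 0.26 ± 0.21. Against unstimulated cells, IL-4 gave limma calls for 0 of the 4 plasminogen genes and 0 of the 4 partners, beside 0.0639% of all genes. At an unadjusted p under 0.05 there were 1 (Anxa2) and 0.

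Protease inhibitors outside the serpin family were read from a list of 37, with 35 on the array and 13 measured. After LPS + IFNγ 2 rose and 3 fell against unstimulated cells, where 6.10% of all measured genes rose and 12.2% fell, and the median of the 13 was 0.26, beside -0.23 over all genes. Timp2, which inhibits matrix metalloproteinases, fell by 4.57 ± 0.28 (limma, adjusted p = 8.42e-05), with 12.14 to 12.64 on the unstimulated and 7.24 to 8.15 on the LPS + IFNγ arrays, and its adjusted p stayed at or below 0.0071 under every alternative. Spint1, a Kunitz inhibitor of serine proteases, fell by 4.58 ± 0.94 (limma, adjusted p = 0.0127), with 7.34 to 11.05 on the unstimulated and 4.41 to 6.03 on the LPS + IFNγ arrays. It was not called without the first or without the third unstimulated array (adjusted p of up to 0.0553), and over all alternatives the adjusted p ran from 0.000773 to 0.0852.

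Cst7, a cystatin that restrains lysosomal cysteine proteases, rose by 3.28 ± 0.65 (limma, adjusted p = 0.0107), with 6.42 to 9.32 on the unstimulated and 10.74 to 11.43 on the LPS + IFNγ arrays. Birc2, an inhibitor of apoptosis that acts on caspase pathways, rose by 1.12 ± 0.22 (limma, adjusted p = 0.0105) but stood at -0.36 under median centring, and of its 4 measured probes 2 were called. The adjusted p of Cst7 and Birc2 over the alternatives reached 0.388 and 0.830, both under median centring, and that of Birc2 was 0.0535 without the third unstimulated array. Against IL-4 cells 1 of the 13 rose and 3 fell, beside 5.64% and 11.5% of all genes, Timp2 by 4.66 ± 0.28 among the latter (limma, adjusted p = 6.93e-05). For IL-4 against unstimulated cells limma called 0 of 13, with 2 (Cst7 and Spint1) at an unadjusted p under 0.05, beside 0.0639% of all genes called. On the weak LPS + IFNγ array Mmp9, Ctsl, Ctsd, Lrp1, Plxdc1, Timp2 and Spint1 were not detected, and without that array each of these 7 was called against unstimulated cells in the same direction (limma, adjusted p from 5.07e-06 to 0.0174).

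**Figure D4:**
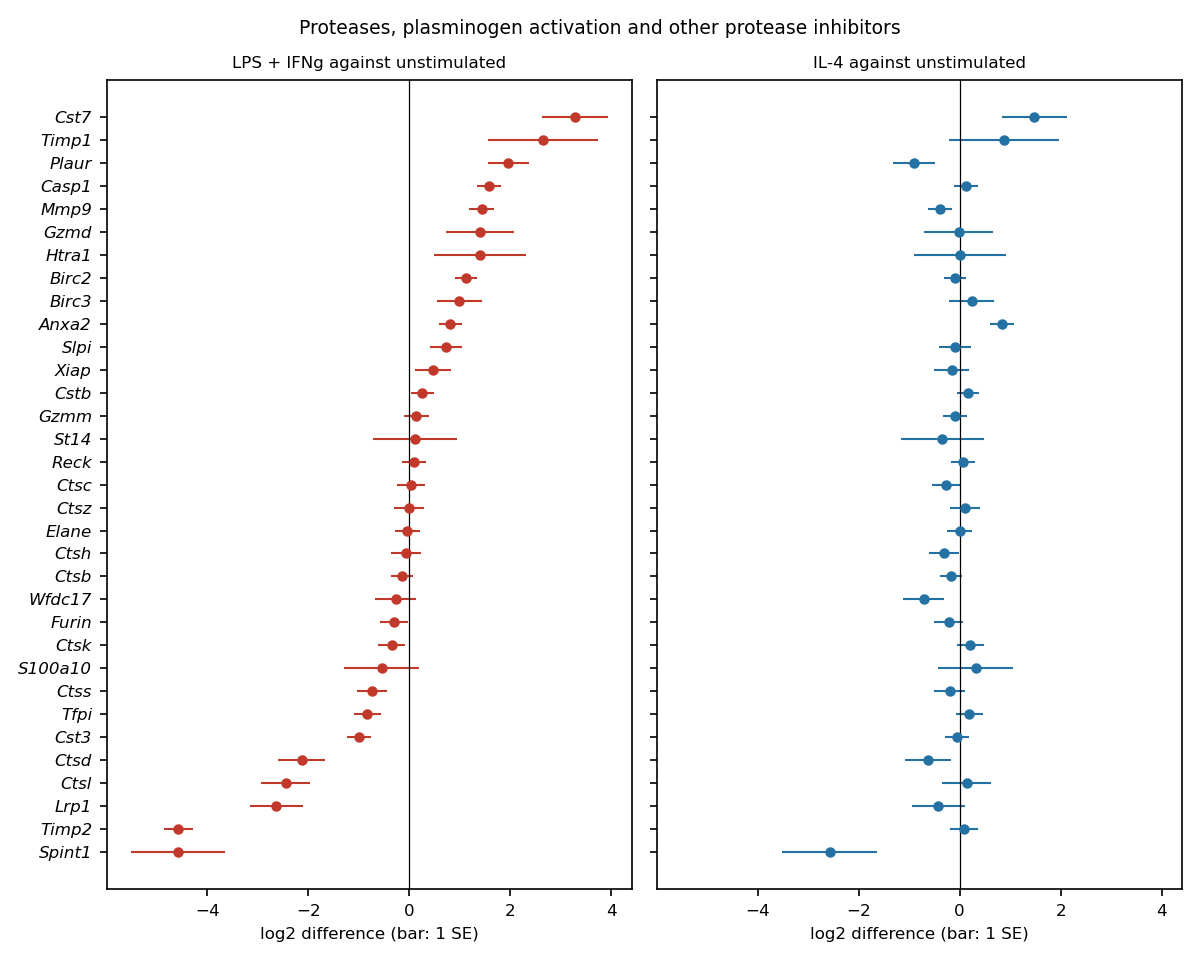
Difference in normalized log2 intensity (axis, ± SE) for the measured proteases, plasminogen activation genes and inhibitors outside the serpin family, in 1 panel for LPS + IFNγ and 1 for IL-4, both against unstimulated cells. In the LPS + IFNγ panel Timp2 at -4.57 and Spint1 at -4.58 are the lowest points, and Cst7 at 3.28 is the highest.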

How the data were processed

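Total RNA of 9 samples was labelled and read on Illumina bead arrays, per the labels. The authors deposited a table of raw bead intensities with a detection p-value for each probe, per the file headers, and a log2 table that Partek is named for in the submitters' processing notes, with column medians of 6.91 to 6.94 and a normalization that is not given in the sources used here. Intensities were corrected by normexp (offset 16) with negative controls inferred from the detection p-values, quantile normalized and put on the log2 scale in limma 3.58.1 under R 4.3.3. Probes detected (p under 0.05) on at least 3 of 9 arrays were fitted over all 9 arrays, with Benjamini-Hochberg adjustment over all of them and a threshold of 0.05. A gene with several measured probes was read by the brightest of them on average.

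Symbols came from the platform annotation: 34885 probes carried 1 symbol, 18 several and 10378 none, and 34807 were matched to current symbols by gene number. The members, the gene lists and the tests were chosen with earlier results of these data known. The text names every member, every other measured serpin, up to 4 called genes with the lowest adjusted p in each of the other lists, Plau, Plat, Gzmb, Ctsb, Ctsl and Ctsg, and the genes nearest each member. The number of arrays limits the precision.

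Arrays sharing a replicate number deviated together for IL-4 and unstimulated cells (r of 0.303 to 0.425). For LPS + IFNγ they did not (-0.041 to -0.004 against unstimulated and -0.115 to 0.068 against IL-4). Replicate number was treated as pairing, on the evidence of the data alone, only in an alternative fit with it as a block. That fit covered every comparison, and the main values and calls, those for IL-4 included, come from a fit without pairing. Slide, taken from the array labels, was used as a block: slide 1 held the first and second arrays of both treatments and slide 2 the other 5. The alternatives were no background correction, median centring, the deposited log2 table, other detection filters, raised undetected values, blocks, array weights and each array left out.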

Additional observations from a re-analysis of the deposited data

How the results depend on the processing

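Read by their brightest probes, the members kept their direction in every comparison where their groups did not overlap. The second Serpinb6a probe did not, at 0.79 with undetected values raised for LPS + IFNγ against unstimulated cells. Of 448 recomputed member values and counts, 381 stayed within 1 SD (counts within 1.5 times) and 67 did not. Of 1062 recomputed values of 20 other named genes, 995 kept their side of the threshold, 49 lost and 15 gained a call, and 3 changed sign, all under median centring: Anxa2 (-0.36) and Birc2 (-0.36) against unstimulated and Birc2 (-0.34) against IL-4 cells. Under median centring the median of all genes was -1.01 for LPS + IFNγ against unstimulated cells (-0.23 in the values reported), and 30 probes were called higher and 1360 lower, in place of 898 and 1749. Against IL-4 the split was 37 and 1284, in place of 811 and 1630. The causes of these shifts were not tested.

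For LPS + IFNγ against unstimulated cells, 2647 probes were called, 1390 with median centring, 966 with the slide as a block, 6154 with array weights and 1440 (without the third unstimulated array) to 5337 (without the second LPS + IFNγ array) as single arrays were left out. Other serpins stayed at 1 call, and at 0 with median centring and with detection on at least 6 arrays, a filter that leaves Serping1 out. Target proteases went from 4 to 2 with median centring, 1 with the slide block, 2 with raised undetected values and 3 to 5 with single arrays left out. Inhibitors outside the family went from 5 to 2 with median centring, 2 with the slide block, 9 with array weights and 2 to 7 with single arrays left out.

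For IL-4 against unstimulated cells, 9 probes were called, 15 without background correction, 5 with median centring, 26 in the deposited log2 table, 1 with detection on at least 6 arrays, 4 with the slide block, 363 with array weights, 0 with raised undetected values and 1 (without the first unstimulated array) to 47 (without the second LPS + IFNγ array) with single arrays left out. With the replicate block, on numbers treated as pairing, 5 were called, and the block moved no other of these counts past 1.5 times. Inhibitors outside the family went from 0 to 1 with array weights, and the 3 lists had 0 calls with each array left out.

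For LPS + IFNγ against IL-4, 2441 probes were called, 1321 with median centring, 6270 with array weights and 1183 (without the third IL-4 array) to 5022 (without the second LPS + IFNγ array) with single arrays left out. Other serpins went from 1 to 0 with median centring and with detection on at least 6 arrays, to 2 with array weights and 1 to 2 with single arrays left out, 2 without the first IL-4 array. Target proteases went from 3 to 1 with median centring and 3 to 4, and inhibitors outside the family from 4 to 1 with median centring, 7 with array weights and 2 to 6 with single arrays left out. The array weight of the second LPS + IFNγ array was 0.04, and values under 7.55 on it are below its detection limit.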

Other observations

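Of the 14 genes and pseudogenes of the Serpina3 cluster, 6 had a probe under their symbol. The rest, Serpina3g among them, could not be read. Other genes of the cluster with a probe showed no signal like that of Serpina3f. Serpina3a and Serpina3b read 4.30 to 4.40 and 4.33 to 4.65 and were detected on 0 arrays. Serpina3i was also detected on 0 arrays, with its highest value, 5.62, on the weak LPS + IFNγ array. Serpina3j was detected on 2 unstimulated arrays at 4.94 each. By clade, 3 of 21 clade A genes and 5 of 26 clade B genes on the array were measured.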
